A study of Canis lupus familiaris with 186 samples.

Results

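Genes of DNA repair and replication fork protection were described in primary osteosarcomas of pet dogs. The members were a list of 38 named genes, taken as the rows of the deposited count table whose symbol is on the list. All 38 were found, each in 1 row, among the 37952 genes of the table. The samples were 186 appendicular osteosarcomas, 1 per dog, biopsied before treatment. Each belonged to 1 of 2 clinical trials, COTC021 or COTC022, with 93 dogs in each. The labels give no arm, age, breed or sex, and there is no normal tissue, so the comparisons are between tumors: along proliferation, along an immune gene signature, and between the trials.

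The proteins fall into a few pathways. Double-strand breaks are repaired either by homologous recombination, which copies an intact sister DNA and so works after replication, or by end joining, which ligates the ends at any time. BRCA1 with BARD1 and PALB2 brings BRCA2 to the break. The Fanconi anemia proteins unhook crosslinks between DNA strands and, with BRCA2, shield stalled replication forks. The kinases ATM and ATR report breaks and stalled forks to CHEK2 and CHEK1. Mismatch, excision and single-strand break repair mend smaller lesions. Osteosarcoma in both dogs and people is known for heavily rearranged chromosomes, and carboplatin, a drug in its standard care, makes the crosslinks that several of these pathways remove.

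Total counts ran from 6587631 to 27420857 per library, with a median of 10797162. By their medians, osteoblast lineage genes marked the samples as bone tumors. The median CPM (counts per 1000000 of the library's total) was 20500 for the collagen gene COL1A1 and 212 for RUNX2, the master regulator of osteoblasts. Single libraries held little of them. COL1A1 went down to 328 CPM, in COTC022 replicate 64, and SP7 and IBSP, also bone cell genes, were at 0 in 1 library each. In 50 libraries the column name carries a doubled separator. They were deeper, with a median total of 19440449 against 9851681 in the other 136, and are called the deeper set here. COTC021 gave 18 of the 50 and COTC022 gave 32. What the spelling marks is not stated. COTC022 replicate 41 stood apart, with a TMM factor (the scaling that corrects for a few genes taking much of a library) of 0.5 against a median of 1.02.

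Every repair gene was detected in every tumor. The lowest count of any member in any library was 3, for XRCC2, which helps load the strand-exchange protein of homologous recombination and was the thinnest member, with a median of 19 counts and 24 libraries under 10 counts. BRIP1 and FANCC fell under 10 counts in 2 libraries each and CHEK1 in 1, and the other members in none. CPM of different genes also reflect transcript length and were compared only within a gene. BARD1 was the only member with values that were not whole numbers, in 72.6% of libraries, so some of its reads were divided between it and another gene and its values are less certain.

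Members differed in how far they varied from dog to dog. The median SD of log2(CPM + 0.5) was 0.57 over the 38 members and 0.61 over all 13422 genes that passed the low-count filter. FANCM, the motor protein that anchors the Fanconi complex on DNA, had the highest SD among the members at 0.93, and RAD50, a structural arm of the MRE11 complex that tethers broken ends, had the lowest at 0.37. FANCM ran from 1.31 CPM through a median of 9.22 to 50.6 CPM. RAD50 ran from 28.8 through 55.9 to 104 CPM, a 3.61-fold range from the lowest tumor to the highest. BRCA1 ran from 1.2 through 10.6 to 46 CPM, a 38.3-fold range. XRCC6, one of the pair of Ku proteins that cap broken ends for end joining, ran from 25.1 through 46.9 to 118 CPM, a 4.71-fold range. RAD50 and XRCC6 thus varied little between dogs, while the most variable members, with an SD from 0.93 down to 0.83, were FANCM, BRCA1, FANCD2, POLQ, FANCA and RAD54L. The trials overlapped throughout for each of these genes, as the points of each row show.

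**Figure D1:**
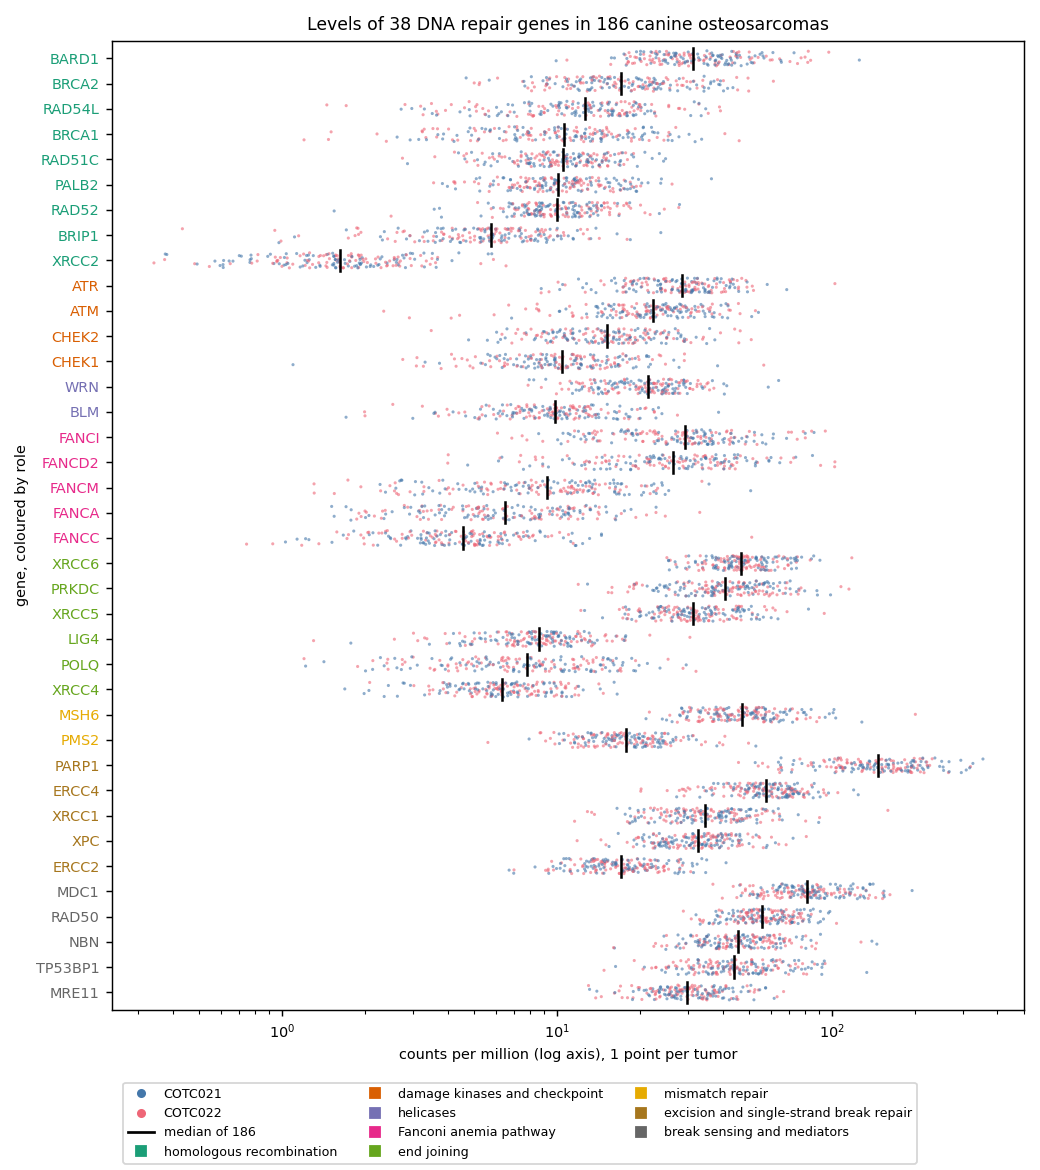
CPM of each of the 38 repair genes on a log axis, 1 point per tumor coloured by trial, with the median of the 186 tumors as a black bar and gene names coloured by role. FANCM, BRCA1 and RAD54L spread widely, while RAD50 and XRCC6 stay within 3.61-fold and 4.71-fold ranges; levels of different genes are not corrected for length.

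The first question was how much of this variation goes with proliferation. MKI67, the gene of the Ki-67 antigen made by cycling cells, served as the measure, and ran from 5.42 through 125 to 471 CPM. A limma model with trial and MKI67 gave each gene's log2 change per doubling of MKI67. With more MKI67, 25 of the 38 members were higher and 0 were lower. Among all 13422 genes tested, 16.5% were higher and 17.9% lower. The median change was 0.13 over the members and -0.01 over all genes. MKI67 and the members were read from the same libraries, so the 2 measures share depth and sampling. MKI67 was also lower in tumors with more of a list of 4 skeletal muscle markers (Pearson r of -0.19, Spearman rho of -0.25) and higher in those with more of 3 cartilage markers (r of 0.18, rho of 0.18; adjusted permutation p = 0.0413 for both r). The correlations were -0.22 and 0.10 within COTC021 and -0.17 and 0.25 within COTC022, and -0.21 and 0.16 without the 2 farthest tumors. MYH1 ran from 0 to 2050 CPM and COL2A1 from 0 to 49200 CPM. The part of these tissues in the result was not tested.

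The Fanconi anemia genes rose most as a group: all 5 were higher, with a median change of 0.50 on the log2 scale per doubling. FANCM rose by 0.66 ± 0.06 (SE, n = 186), or 57.8% per doubling of MKI67 (adjusted p = 4.31e-22, limma). FANCD2 and FANCI, which are clamped together onto crosslinked DNA as a pair, rose by 0.57 ± 0.05 and 0.47 ± 0.04. FANCA and FANCC, parts of the core complex that modifies that pair, rose by 0.50 ± 0.06 and 0.27 ± 0.06. FANCC, at 20.2% per doubling, had the smallest change of the 5.

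Of the 9 homologous recombination genes, 7 rose. BRCA1 had the largest change, 0.61 ± 0.05 (adjusted p = 3.61e-22, limma). RAD54L, a motor that drives strand invasion, rose by 0.55 ± 0.05, and BRIP1, the helicase partner of BRCA1, by 0.39 ± 0.05. BRCA2 rose by 0.32 ± 0.05, PALB2 by 0.25 ± 0.04, BARD1 by 0.17 ± 0.04 and RAD51C by 0.13 ± 0.04. The 2 that did not pass were XRCC2, at 0.06 ± 0.05, and RAD52, the annealing protein, at 0.01 ± 0.04 (adjusted p = 0.779, limma).

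End joining split. POLQ, the polymerase of the error-prone theta-mediated form of end joining, rose by 0.57 ± 0.06, and XRCC5, the larger Ku protein, by 0.12 ± 0.03. The other 4 did not pass. These were PRKDC, the catalytic kinase that Ku recruits, at 0.06 ± 0.04, XRCC6 at 0.02 ± 0.03, and XRCC4 and LIG4, the scaffold and the ligase that seal the ends, at 0.01 ± 0.04 and -0.01 ± 0.04.

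Among the damage kinases and their targets, CHEK1 rose by 0.27 ± 0.05, CHEK2 by 0.20 ± 0.05 and ATR by 0.10 ± 0.04. ATM was at 0.12 ± 0.05 and did not pass (adjusted p = 0.0533, limma). The helicase BLM, which dissolves recombination intermediates, rose by 0.35 ± 0.05. WRN, its relative, was at 0.07 ± 0.04 (adjusted p = 0.100, limma).

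Both mismatch repair genes rose, PMS2 by 0.16 ± 0.03 and MSH6 by 0.13 ± 0.03. Of the excision and single-strand break group, 3 of 5 rose. PARP1, the sensor of nicks, rose by 0.22 ± 0.03, its scaffold partner XRCC1 by 0.20 ± 0.04, and ERCC2, a helicase of the excision complex, by 0.09 ± 0.03. The damage sensor XPC was at -0.03 ± 0.03, and ERCC4, a subunit of the nuclease that cuts beside a lesion, at 0.03 ± 0.03. Of the break sensors and mediators, TP53BP1 and MDC1, which build the protein scaffold around a break, rose by 0.13 ± 0.04 and 0.13 ± 0.03. None of the 3 genes of the MRE11 complex passed, with MRE11 at -0.02 ± 0.03, RAD50 at 0.04 ± 0.03 and NBN at -0.03 ± 0.04.

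**Figure D2:**
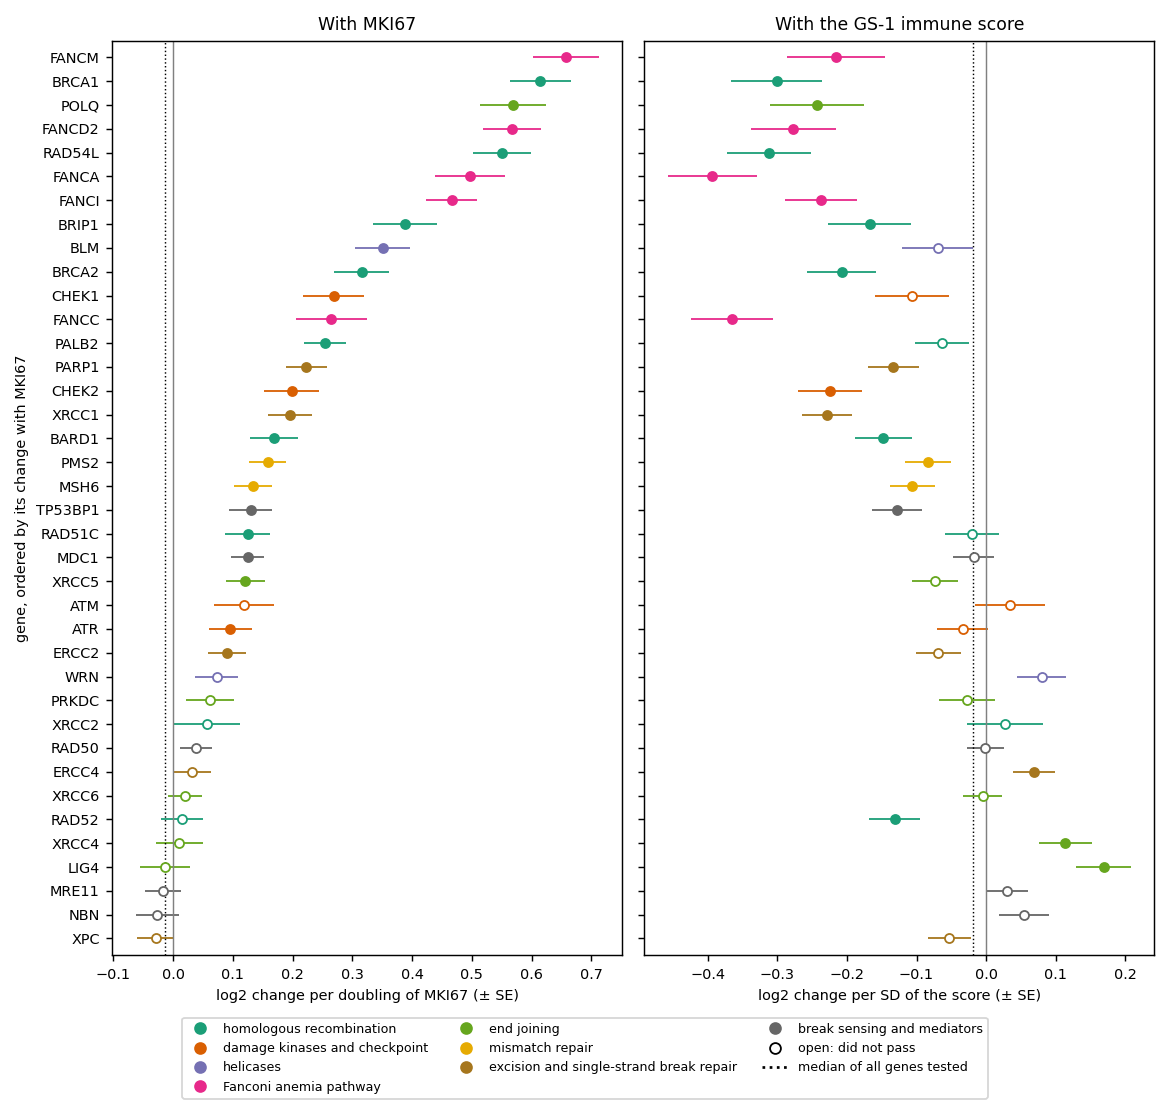
Log2 change of each repair gene per doubling of MKI67 (left) and per SD of the GS-1 immune score (right), with ± SE over 186 tumors, coloured by role; filled points passed an adjusted p of 0.05 and open points did not, and the dotted line is the median of all 13422 genes. On the left 25 members are filled and all lie above 0; on the right 18 filled members lie below 0 and 3, LIG4, XRCC4 and ERCC4, lie above.

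As a share of variance, the squared Pearson correlation with MKI67 in log2(CPM + 0.5) had a median of 13.5% over the members and 1.91% over all genes tested. It went from 0.121% for NBN to 50.9% for BRCA1. For 12 members the share was above 25%, against 2.41% of all genes. By role the median was 44.3% for the Fanconi genes, 27.4% for homologous recombination, 5.47% for break sensing and mediators and 3.63% for end joining. So for BRCA1 about as much of the variance between tumors went with MKI67 as did not, and for XRCC4, at 0.553%, almost none did. After TMM scaling the median over the members was 7.97% and that over all genes 1.75%, with 9 members above 25%. The BRCA1 correlation was 0.72 within COTC021 and 0.70 within COTC022, and that of FANCM was 0.77 and 0.63.

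**Figure D3:**
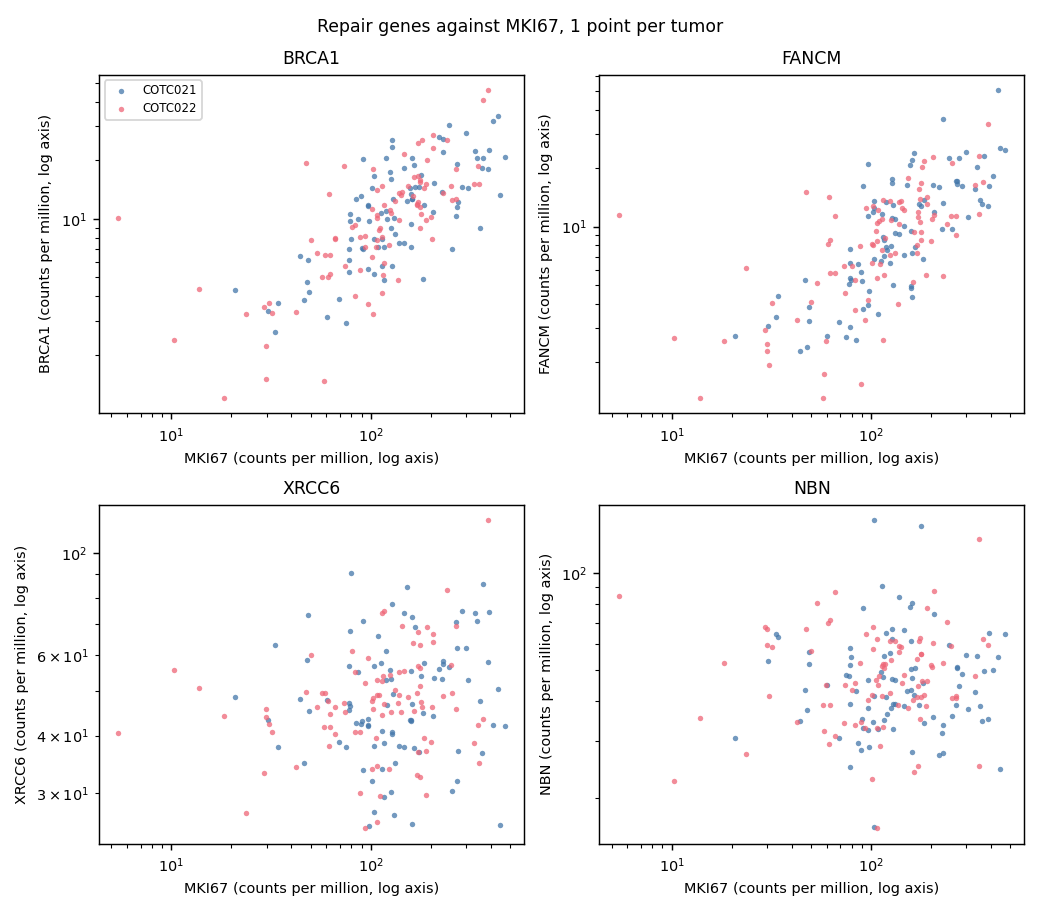
BRCA1, FANCM, XRCC6 and NBN against MKI67 in CPM, both axes logarithmic, 1 point per tumor coloured by trial. BRCA1 and FANCM climb with MKI67 (Pearson r of 0.71 and 0.70 in log2(CPM + 0.5)), whereas XRCC6 and NBN (0.16 and 0.03) stay nearly level.

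These counts of members depended on how many and which libraries were used. Within the deeper set alone 8 members were higher with MKI67, against 1.41% of all genes, and within the other 136 libraries 23 were, against 16.4%. A test of the difference in slope between the 2 sets passed for 0 members and 206 genes of all, and 4 members had an unadjusted p under 0.05, the lowest being FANCM (0.00414, adjusted p = 0.105, limma), whose slope was smaller by 0.31 ± 0.11 in the deeper set. Between the trials the slope difference passed for 0 members and 83 genes of all, with 2 members at an unadjusted p under 0.05. With library totals alone in place of TMM scaling, 30 members were higher, adding ATM, WRN, PRKDC, ERCC4 and RAD50, while the background moved to 28.3% higher and 9.79% lower. With a list of 13 other proliferation genes in place of MKI67, TP53BP1 no longer passed (0.05 per SD of the list, adjusted p = 0.196, limma) and ERCC4 was lower (-0.09, adjusted p = 0.00426, limma).

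The second comparison was along GS-1, a set of genes that the study used to separate dogs of favorable and poor prognosis. Here it was a score, the mean z-score of 27 of its genes, and each change is given per SD of that score. The score was mainly a leukocyte measure in these tumors: its correlation was 0.95 with a list of leukocyte markers and 0.86 with PTPRC, the pan-leukocyte antigen, against -0.41 with osteoblast lineage markers and -0.36 with cartilage markers (Spearman rho of 0.95, 0.82, -0.30 and -0.35, each with a permutation p of 3e-05 or less). The leukocyte list holds 10 genes, of which 8 passed the filter and 1 is among the 27 of the score. The correlation used the listed genes with a median above 0 CPM. That left out MS4A1 but kept CD79A, which had not passed the filter. The score ran from -1.28 through -0.14 to 3.57. In bulk tissue, fewer tumor cells and less RNA of a gene per tumor cell cannot be told apart.

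With a higher GS-1 score, 18 of the 38 members were lower and 3 were higher. Among all genes 26.2% were lower and 22.3% higher. The median change was -0.08 over the members and -0.02 over all genes. All 5 Fanconi genes fell, 6 of 9 homologous recombination genes and both mismatch repair genes fell, and of the 6 end joining genes 2 rose and 1 fell. The share of members that were lower was thus above the background, and the share that were higher was below it.

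FANCA fell most, by 0.39 ± 0.06 on the log2 scale per SD, or 23.9% (adjusted p = 5.6e-08, limma). FANCC fell by 0.36 ± 0.06 and XRCC1 by 0.23 ± 0.04 (adjusted p = 4.08e-08 and 2.4e-08, limma). With MKI67 their changes were 0.27 and 0.20. BRCA1 fell by 0.30 ± 0.07, RAD54L by 0.31 ± 0.06, FANCD2 by 0.28 ± 0.06 and CHEK2 by 0.22 ± 0.05. POLQ, FANCI, FANCM, BRCA2, BRIP1, BARD1, PARP1, RAD52, TP53BP1, MSH6 and PMS2 were the other members that fell, with changes from -0.24 in POLQ to -0.08 in PMS2. The members that passed in neither direction ran from -0.11 in CHEK1 to 0.08 in WRN. RAD52 was the only member of these 18 that did not also rise with MKI67.

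The members that rose with the score were LIG4, by 0.17 ± 0.04 (adjusted p = 0.000157, limma), XRCC4, by 0.11 ± 0.04 (adjusted p = 0.00903, limma), and ERCC4, by 0.07 ± 0.03 (adjusted p = 0.0464, limma). LIG4 and XRCC4 are partners in one ligase complex. LIG4 was at 1.3 CPM in the lowest tumor, 8.57 at the median and 30.4 in the highest, COTC022 replicate 64. This library also had the highest GS-1 score. It had the lowest COL1A1, 0.0328% of its counts against a median of 2.05%, and its MKI67 ranked 178 from the top. Without the 2 libraries farthest in score, this one included, the change of LIG4 was 0.12 ± 0.04 (adjusted p = 0.0154, limma). For XRCC4, which ran from 1.69 through 6.3 to 16.5 CPM, the value without them was 0.13. XRCC4 did not pass within COTC021 or within either library set.

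Of the 2 library sets, LIG4 passed with the score only within the deeper one. COTC022 replicate 64, the tumor highest in both score and LIG4, belongs to that set and to COTC022. Neither the deeper set nor COTC022 was fitted without it. In the deeper set LIG4 rose by 0.29 per SD (adjusted p = 6.06e-06, limma), with a correlation of 0.63. In the other 136 libraries the change was 0.08 (adjusted p = 0.298, limma), with a correlation of 0.13. The difference in slope was 0.21 ± 0.08, with an unadjusted p of 0.00838 and an adjusted p of 0.468 (limma), so it did not pass. This test of slopes passed for 0 members and 0 genes of all. At an unadjusted p under 0.05 there were 4 members, the lowest being ATR (0.00233, adjusted p = 0.365, limma). Within COTC021 LIG4 was at 0.10 (adjusted p = 0.158) and within COTC022 at 0.23 (adjusted p = 0.000988, limma). The call on ERCC4 was lost with edgeR (adjusted p = 0.0681), DESeq2 (0.0678), library totals alone (0.0592), no low-count filter (0.126) and without the 2 libraries farthest in score (0.224, both limma), and it did not pass within either trial or either library set.

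**Figure D4:**
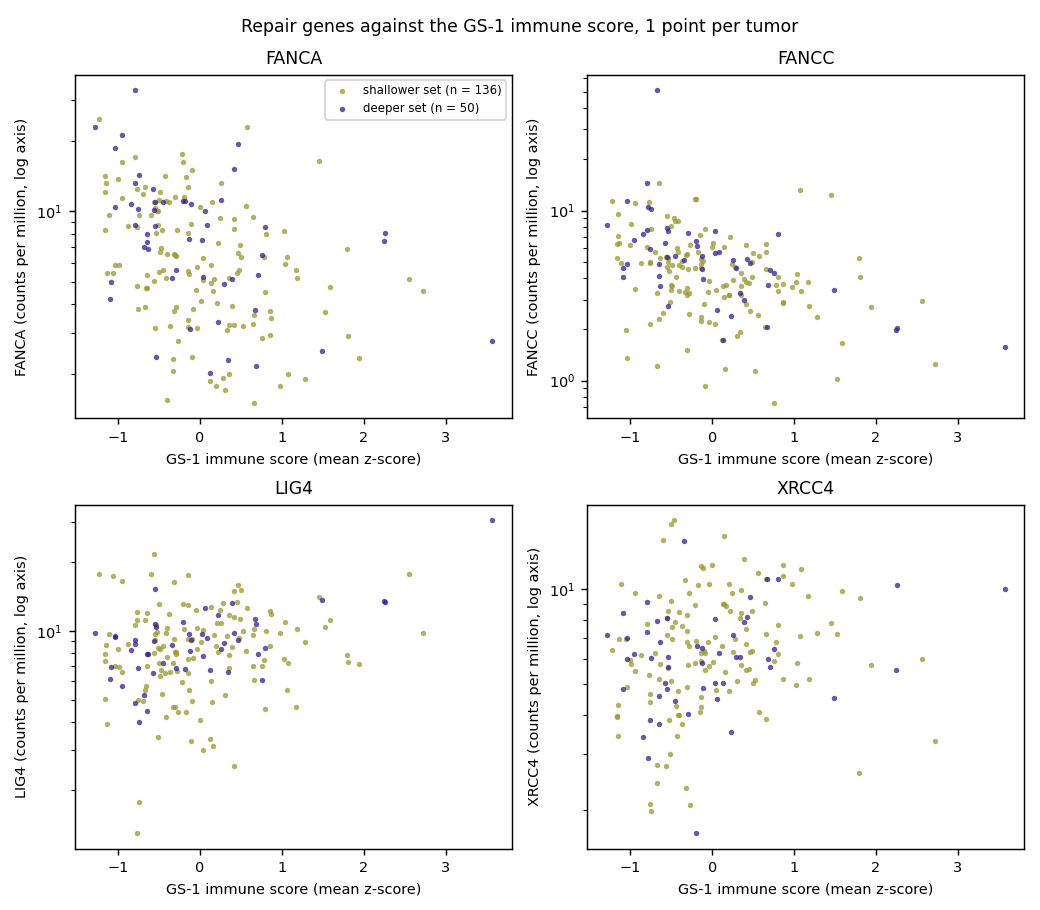
FANCA, FANCC, LIG4 and XRCC4 in CPM on log axes against the GS-1 score (mean z-score), 1 point per tumor coloured by library set. FANCA and FANCC decline with the score (Pearson r of -0.38 and -0.40) and LIG4 and XRCC4 rise weakly (0.25 and 0.19). The LIG4 correlation is 0.63 in the deeper set, which holds the tumor highest in both measures, and 0.13 in the other.

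MKI67 itself was lower in tumors with a higher score (Pearson r of -0.18, permutation p = 0.0165; Spearman rho of -0.23, permutation p = 0.00139), so both were placed in one model. The adjusted p over the 10 measures set against MKI67 was 0.0413 for the Pearson value, and r was -0.20 without the 2 farthest tumors, -0.13 within COTC021 and -0.24 within COTC022. Beside MKI67, 14 members were lower with the score and 4 were higher, against 24.1% and 20.7% of all genes. The median change was -0.05 over the members and -0.02 over all genes. FANCC stayed at -0.32 ± 0.06, FANCA at -0.28 ± 0.06, XRCC1 at -0.19 ± 0.04 and CHEK2 at -0.19 ± 0.05. BRCA1 shrank to -0.16 ± 0.05 and FANCD2 to -0.16 ± 0.05. FANCM, POLQ, BRIP1 and PMS2 no longer passed by limma, although POLQ and BRIP1 did by edgeR (adjusted p = 0.00181 and 0.036). WRN joined LIG4, XRCC4 and ERCC4 among the higher, at 0.10 ± 0.04 (adjusted p = 0.0186, limma).

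With the list of 13 proliferation genes in place of MKI67, 8 members were lower and 3 higher, against 20.6% and 18.1% of all genes. The share of lower members, above the background with MKI67 in the model, was near it with this list. BRCA1, BRCA2, RAD54L, FANCD2, FANCI, MSH6, PARP1 and ERCC4 no longer passed, with BRCA1 at -0.09 (adjusted p = 0.144, limma) and FANCD2 at -0.05 (adjusted p = 0.287, limma), whereas XPC now did. Read the other way, MKI67 beside the score left 27 members higher and 0 lower, against 14% and 14.6% of all genes, adding ATM at 0.13 ± 0.05 and WRN at 0.09 ± 0.04.

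Between the trials no repair gene passed the test. With COTC022 set against COTC021, 0 of 38 members were higher and 0 lower by limma, against 0.0149% and 0% of all genes. edgeR and DESeq2 also called 0 members. Of all genes 0.663% were higher and 0.298% lower by edgeR, and 0.311% and 0.226% by DESeq2. At an unadjusted p under 0.05 there were 7 members by limma, 6 by edgeR and 7 by DESeq2. Over all genes there were 1332 of 13422 by limma, 1824 of 13422 by edgeR and 1799 of 13023 by DESeq2. The changes ran from -0.26 in FANCM to 0.18 in RAD52, with an SE from 0.05 to 0.14 over the members. The lowest p was that of MDC1, at -0.17 ± 0.06 (unadjusted p = 0.00324, adjusted p = 0.263, limma). MDC1 ran from 46.2 through 85 to 196 CPM in COTC021 and from 36.9 through 78 to 163 CPM in COTC022, so the groups overlapped over nearly their whole range.

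Between the library sets 2 members passed, a share near the background. With trial in the model, the deeper set was higher in 1 of the 38 members and lower in 1, against 1.92% and 2.35% of all genes. ATM was higher by 0.41 ± 0.10 on the log2 scale (adjusted p = 0.0087, limma) and MRE11 was lower by 0.23 ± 0.07 (adjusted p = 0.0247, limma). With the set as a covariate, 25 members were again higher with MKI67, and 4 were higher and 18 lower with the GS-1 score. The added member was WRN, at 0.08 (adjusted p = 0.0496, limma), which had been at 0.08 with an adjusted p of 0.0502 without the set in the model.

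Single tumors with little of one repair gene were few. A value more than 4-fold and more than 3 robust SD below the median of its gene was counted as low. There were 23 such values among the 7068 of the members, or 0.325%, against 0.269% over all genes, a share near the background. They lay in 10 members and 13 tumors. ATM and BRIP1 were low in 4 tumors each, BRCA1, BLM and FANCD2 in 3 each, RAD54L in 2, and CHEK1, FANCC, LIG4 and RAD52 in 1 each.

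COTC022 replicate 22 was low in 5 members. Its ATM was 2.34 CPM from 27 counts against a median of 22.3 CPM, 8.01-fold below and the only member value past an 8-fold limit. Its BRIP1 was 0.434 CPM from 5 counts, its BRCA1 rested on 17 counts, 5.64-fold below the median, its LIG4 was 1.3 CPM from 15 counts and its BLM was 2 CPM from 23 counts. The tumor had 58.5 CPM of MKI67, which ranked 162 of the 186 from the top. The TMM factor of this library was 0.848, and 34 of its 38 members lay below their medians in CPM. After MKI67 and trial were taken out, its ATM, BRIP1 and LIG4 were still low and its BRCA1 and BLM were not.

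Low values also came together in 4 other tumors. COTC022 replicate 40 was low in BRCA1 (1.2 CPM), BLM (2 CPM) and FANCD2 (4.01 CPM), with 18.3 CPM of MKI67. COTC022 replicate 35 was low in RAD54L (1.71 CPM), BRIP1 (0.941 CPM) and FANCD2 (4.02 CPM), with 10.3 CPM of MKI67. COTC022 replicate 72 was low in BRCA1 (1.51 CPM) and BRIP1 (0.991 CPM), with 30.0 CPM of MKI67. COTC021 replicate 61 was low in BRIP1, at 0.974 CPM from 8 counts, and in CHEK1, at 1.1 CPM from 9 counts, with 75.0 CPM of MKI67, more than COTC022 replicate 22 had. Once MKI67 and trial were taken out, its CHEK1 was still low and its BRIP1 and the named values of the other 3 tumors were not. In all 8 values were then counted, or 0.113% of those of the members against 0.248% over all genes. After TMM scaling 27 were counted, or 0.382% against 0.556%. The 4 tumors low in ATM were all from COTC022, and 3 of the 4 stayed low in ATM after MKI67 and trial were taken out. COTC022 replicate 62 had an ATM of 2.9 CPM from 54 counts, and replicate 24 had 4.12 CPM from 37 counts at 103 CPM of MKI67.

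High values under the same limits numbered 4, or 0.0566% of those of the members against 0.278% over all genes. FANCC was 51.1 CPM in COTC022 replicate 63, from 1027 counts, 10.2-fold above its median of 4.56 CPM. The highest FANCC value in COTC021 was 14.5 CPM. The same tumor held the highest FANCD2, FANCI, XRCC5 and POLQ and had 347 CPM of MKI67. CHEK1 was 56.5 CPM in COTC022 replicate 61, MSH6 was 201 CPM in COTC022 replicate 25 and XRCC1 was 160 CPM in COTC022 replicate 56. All 4 tumors belonged to the deeper set.

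Low levels of many members at once were seen in several libraries. COTC022 replicate 41 held the lowest value of 8 members, among them RAD51C, CHEK2, WRN and XRCC1, and 37 of its 38 members lay below their medians. COTC022 replicates 16, 72 and 93 also had 37 members below their medians, with TMM factors of 0.816, 0.84 and 0.918. These medians are of CPM from library totals, without TMM scaling. COTC022 replicate 41 was the library with the TMM factor of 0.5, and none of its member values counted as low. Without it the counts of members were the same in all 3 fits, 25 higher with MKI67, 18 lower and 3 higher with the GS-1 score, and 14 lower and 4 higher beside MKI67, and the median share of variance with MKI67 was 12%.

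Proteins that work together were then compared by how their genes moved together across tumors, for 20 pairs of known partners. Over all 703 pairs of members the median Pearson r was 0.29 in log2(CPM + 0.5), and 0.22 in the residuals left after MKI67 and trial. Among the 20 partner pairs, 12 had an r above 0.3, and 8 did in the residuals or after TMM scaling. Their median r was 0.33, near that of all 703 pairs, with 0.28 in the residuals and 0.22 after TMM scaling. The share of the 703 pairs above 0.3 was not counted, nor was their median after TMM scaling. All p-values below are from two-sided permutation tests with 100000 resamples, of which 1e-05 is the smallest that can be had, and adjusted over the 20 pairs.

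FANCD2 and FANCI had the highest r of the 703 pairs, 0.81 (rho 0.75, p = 1e-05 for both by permutation, adjusted p = 2e-05 for r), with 0.64 in the residuals. It was 0.75 in COTC021, 0.85 in COTC022 and 0.78 after TMM scaling. BRCA1 stood at 0.74 with BRIP1, 0.68 with PALB2 and 0.45 with BARD1, and at 0.58, 0.50 and 0.30 in the residuals. BRCA2 and PALB2 were at 0.50, with 0.30 in the residuals, and RAD52 and RAD54L at 0.28, with 0.25. FANCM and BLM were at 0.67, PARP1 and XRCC1 at 0.48, and FANCA and FANCC at 0.48. The residual values of these last 3 pairs were 0.47, 0.34 and 0.38.

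Within the end joining and break sensing complexes some pairs were correlated and others were not. XRCC5 and XRCC6, which form the Ku ring together, were at 0.34, with 0.31 in the residuals, and MRE11 and RAD50 at 0.33, with 0.32. NBN, the third subunit, was at 0.08 with MRE11 and 0.05 with RAD50 (adjusted permutation p = 0.309 and 0.492). XRCC4 and LIG4 were at 0.10 (adjusted permutation p = 0.174), although both rose with the GS-1 score. ATM and CHEK2, a kinase and its target, were at -0.11 (adjusted permutation p = 0.155) and, in the residuals, at -0.20 (adjusted permutation p = 0.00892), at -0.05 in COTC021 and -0.29 in COTC022. PRKDC was at 0.18 with XRCC5 and 0.16 with XRCC6, and at 0.01 and 0.03 after TMM scaling.

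**Figure D5:**
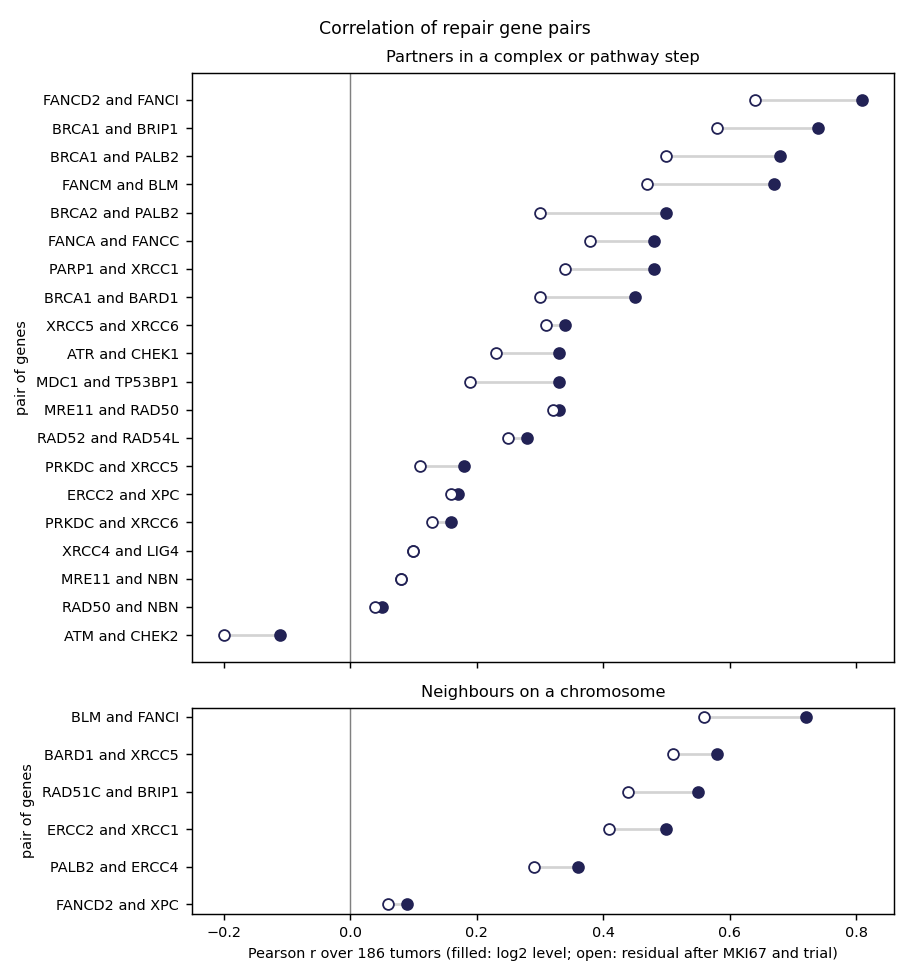
Pearson r over 186 tumors for 20 pairs of partner genes (upper panel) and 6 pairs of neighbouring genes (lower panel); filled points are log2(CPM + 0.5) and open points the residuals after MKI67 and trial. FANCD2 with FANCI is at 0.81 and 0.64, and 5 of the 6 neighbour pairs keep a residual r of 0.29 or more.

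Some members lie close together on a chromosome, and 6 pairs less than 10 Mb apart were looked at after their coordinates were seen. The coordinates are those of NCBI RefSeq for the UU_Cfam_GSD_1.0 assembly, the build the authors mapped to. On chromosome 3, FANCI spans positions 52772736 to 52847574 and BLM 53894900 to 53993588, and their r was 0.72, with 0.56 in the residuals. On chromosome 37, BARD1 at 21826926 to 21905616 and XRCC5 at 22977769 to 23068341 had an r of 0.58, with 0.51 in the residuals. These 2 proteins act in different pathways, and the residual r was 0.49 in COTC021 and 0.53 in COTC022. The values of BARD1 are less certain, since some of its reads were divided between it and another gene.

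On chromosome 9, RAD51C at 33257474 to 33314872 and BRIP1 at 34768817 to 34949171 had an r of 0.55, with 0.44 in the residuals. On chromosome 1, ERCC2 at 110886053 to 110903819 and XRCC1 at 112265054 to 112288168 had an r of 0.50, with 0.41 in the residuals. PALB2 and ERCC4, 6.98 Mb apart on chromosome 6, were at 0.36 and 0.29. FANCD2 and XPC, 3.95 Mb apart on chromosome 20, were at 0.09 and 0.06. The 4 closest pairs, 1.05 to 1.45 Mb apart, were thus all above the residual median of 0.22 over the 703 pairs. Their r after TMM scaling was 0.67, 0.49, 0.45 and 0.39. Some pairs on different chromosomes reached like residual values, such as BLM and POLQ at 0.53. The share of the 703 pairs that did so was not counted. DNA copy number was not analysed here.

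Other genes of the same pathways, a list of 71 outside the 38, were tested in the same fits, and 70 had passed the filter. With MKI67, 30 were higher and 3 lower, against 16.5% and 17.9% of all genes. DNA2, a nuclease and helicase that trims ends and stalled forks, rose by 0.66 ± 0.06, and CLSPN, the claspin adaptor that lets ATR activate CHEK1, by 0.64 ± 0.05. POLM and POLL, gap-filling polymerases of end joining, fell by 0.25 ± 0.06 and 0.08 ± 0.03, and the excision factor XPA fell by 0.20 ± 0.03. With the GS-1 score 27 were lower and 8 higher, against 26.2% and 22.3% of all genes. DNA2 fell by 0.40 ± 0.07, CLSPN by 0.25 ± 0.07 and PARP2 by 0.22 ± 0.04, while DCLRE1C, the Artemis nuclease of end joining and antigen receptor assembly, rose by 0.27 ± 0.03, POLM by 0.23 ± 0.06 and ERCC5 by 0.16 ± 0.03. Beside MKI67, 24 were lower with the score and 7 higher, against 24.1% and 20.7% of all genes. NTHL1 and DDB2, of base and nucleotide excision repair, were lower by 0.23 ± 0.05 and 0.18 ± 0.05. Between the trials 0 of the 70 passed by limma, against 0.0149% of all genes higher and 0% lower.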

How the data were processed

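RNA from frozen primary tumors was sequenced from stranded mRNA libraries in paired reads. The authors trimmed reads with cutadapt, aligned them with STAR 2.7.0f to CanFam4 (GSD_1.0) and estimated gene-level expected counts with RSEM 1.3.1, and deposited these expected counts in 1 table, in which 3.07% of values were not whole. Of the table's 198 columns, 186 matched a sample and 12 were not used. Values were rounded and genes of low count removed with filterByExpr at the study's settings (large.n 5, min.prop 0.5 and a min.count of 10), so that 13422 stayed, all 38 members among them. limma 3.58.1 with voom weights and TMM factors (edgeR 4.0.16, R 4.3.3) was fitted to all genes, with Benjamini-Hochberg adjustment over all of them and a threshold of 0.05. The covariates were trial with MKI67 (log2 CPM after TMM), with the GS-1 score (mean z-score of 27 genes in log2(CPM + 2) after quantile normalization), with both, or with none. Every member is named, and at most 3 other repair genes per direction and fit, those of largest change. CPM use library totals and a pseudocount of 0.5. A robust SD is the scaled median absolute deviation. DESeq2 1.42.0 and edgeR's quasi-likelihood test were alternatives. The limma fit with trial and MKI67 was tested on simulated counts of independent genes. The fits with the GS-1 score were not. Members, lists and tests were chosen with earlier results of these data known. Nothing in the labels ties several samples to 1 dog, and the highest correlation between 2 libraries was 0.9497. The study's outcome data and clusters, sequences and promoters, and transcript lengths were not used here.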

Additional observations from a re-analysis of the deposited data

How the results depend on the processing

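No paired analysis was made: the samples were 1 per dog, and the labels pair no dogs between the trials. The counts of members with MKI67 and with the GS-1 score stayed within 1.5 times under edgeR, DESeq2, no low-count filter, size factors, library totals alone, no trial term, and either library label as a covariate. Subsets of the libraries hold fewer dogs. With MKI67, 8 members were higher within titles spelled Tumor (57 libraries) and 8 within the deeper set, against 1.86% and 1.41% of all genes. With the GS-1 score, the higher and lower members numbered 1 and 7 within titles spelled Tumor, 1 and 7 within the deeper set, and 0 and 10 within COTC021, and 0 were higher within the libraries outside the deeper set. Of all genes 15% and 11.3%, 14.4% and 10.1%, and 14.3% and 11.3% were higher and lower in the first 3 of these, and 17.1% were higher in the last. Beside MKI67 the higher and lower members numbered 1 and 4 within titles spelled Tumor and 2 and 9 within titles spelled tumor. Within the deeper set they numbered 1 and 4, and within COTC021 0 and 5. Of all genes 14.5% and 10.3%, 15.6% and 14.6%, 13.4% and 8.24%, and 13.2% and 9.45% were higher and lower in these, in order. Outside the deeper set 1 was higher, against 16% of all genes, and 8 were lower within COTC022, against 14.9%. Beside the proliferation list 8 were lower, against 20.6%, and without the 2 libraries farthest in score 2 were higher, against 18.5%. The proliferation list in place of MKI67 turned ERCC4 from 0.03 to -0.094 (adjusted p = 0.00426, limma), the 1 member then lower, and ERCC2 was at -0.0035 with MKI67 in the deeper set (adjusted p = 0.984, limma). The median share of variance with MKI67 was 7.97% after TMM scaling. Low values numbered 1 at an 8-fold limit and 8 after MKI67 and trial. The cause of these changes was not tested. The trials, with 93 dogs each, gave 23 and 17 members higher with MKI67 in COTC021 and COTC022, against 14.6% and 6.16% of all genes. Normalization moved the median of all genes by less than 0.1 in each fit. The deeper-set fits, the TMM share, the neighbour pairs, the tests of slope differences and the fits without COTC022 replicate 41 were chosen after seeing the data. Depth limits XRCC2, BRIP1 and FANCC most, and counts cannot tell a change of cell type from a change within cells.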
